A study of Mus musculus with 23 samples.

Results

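The SOXB and SOXC transcription factors were followed here through the mouse oligodendrocyte lineage, as 7 genes of the 35385 gene symbols in the deposited tables. The members were chosen by name, from the standard division of the SOX family. Their values did not enter the rule, but earlier results of these data were known when it was set. Sox1, Sox2, Sox3 and Sox21 form the SOXB group (4 genes), and Sox4, Sox11 and Sox12 form the SOXC group (3 genes). All 7 were listed in every table used and all 7 passed the filter on low values in every comparison.

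SOX proteins bind DNA through a shared HMG box that recognises short sites with the core ACAAT, and they usually act with partner proteins such as POU factors. Among the SOXB genes, Sox1, Sox2 and Sox3 (the SOXB1 genes) encode activators that hold neural progenitor cells in an undifferentiated state, and Sox2 is also a core gene of pluripotent cells. Sox21 encodes a SOXB2 protein that represses genes which SOXB1 proteins activate. The SOXC proteins are activators best known from newborn neurons, where SOX4 and SOX11 switch on genes of neuronal maturation, with SOX12 the weakest activator of them in mouse. SOX8 and SOX10 are SOXE factors of the oligodendrocyte lineage, while SOX6 is a SOXD protein without an activation domain of its own.

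Messenger RNA was measured in 23 libraries of mouse cells, which fall into 8 groups. The starting cells were progenitors of oligodendrocytes (OPCs), derived in culture from 2 pluripotent lines of epiblast stem cells, EpiSC5 and 129O1 (strains 129SvEv and 129S1/SvImJ), and purified for CD140a and NG2. Sorted OPCs (3 libraries) and O1-positive oligodendrocytes (OLs, 3 libraries) were collected on magnetic beads. In the SOX6 experiment (17 libraries), OPCs carried a lentiviral CRISPRv2 vector with Cas9 and sgNTC, a non-targeting guide (3 libraries in growth medium, 3 in differentiation-permissive medium), sgSox6 g1 (2 and 3 libraries) or sgSox6 g2 (3 and 3 libraries). All of those cells, controls included, had been through 96 hours of puromycin selection (500 ng/mL), came from 1 original batch of OPCs per the labels, and were kept for 60 hours in OPC growth medium with PDGFA and FGF2 (called OPCs) or in a permissive medium without thyroid hormone T3 (called OLs, not sorted). Targeted cells were selected pools and not single clones, and which of the 2 stem cell lines gave each library was not used, since the protocol and the table names differ on it. The labels do not say whether libraries of a group were separate cultures, so p-values measure the spread between libraries, which may be technical.

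The guide sites are shown because SOX genes resemble each other, so a guide for Sox6 could in principle meet its relatives. Both guides matched coding exons of Sox6 on chromosome 7 (GRCm38), guide 1 at chr7:115580612-115580631 in exon 9 of 17 of the transcript ENSMUST00000072804.10, on the plus strand, and guide 2 at chr7:115512747-115512766 in exon 14 of 17, on the minus strand. Capitals mark the PAM, the bases next to the site that Cas9 requires.
sgSox6 g1: ttgacggaatgaactgtacgGGG
sgSox6 g2: agaacacgctttgagaacctGGG
In the transcripts of the 7 members only stretches followed by a PAM ending in GG were scored. The closest of them to either guide still had 7 mismatches, in Sox11 for both guides. The closest in any other member had 8 mismatches or more. The annotated transcripts of the members also shared few 31-base words: the pair with the most was Sox4 and Sox11 with 18.

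Total estimated counts per library were 13967438 to 16958611 in OPCs and 13124580 to 18551822 in OLs, and the depth behind the sorted libraries is unknown because their table holds only TPM. Levels are given as CPM, the TMM-normalized counts expressed on 1 shared total for all libraries, and as TPM, which are also divided by transcript length, wherever genes are compared with each other. Sox6 itself was lower in every targeted library, at 67.4 to 88.9 CPM against 165 to 234 CPM in control OPCs and at 157 to 259 CPM against 387 to 437 CPM in control OLs. In the edgeR test Sox6 fell by 1.32 ± 0.13 (SE, log2) in OPCs and by 0.81 ± 0.14 in OLs, with adjusted p of 0.00147 and 0.0095. In the authors' deposited table Sox6 was 1.48 (adjusted p = 3.01e-05) and 0.83 (adjusted p = 0.0593, which does not pass) as control over targeted. Guide 1 OL library B stood apart: it differed from its 2 group mates by a chi-square per gene of 101 to 104, against 6.58 between those mates. Its deviations fell with transcript length (Spearman rho −0.67 across 8783 genes, which are not independent), so OL results are given with and without it. Control OPC libraries A and C also deviated with length, in opposite directions (rho −0.47 and 0.50), and differed by a chi-square per gene of 24.3. Guide 2 OL library B differed from its group mates by 21.3 to 23.8, against 7.41 between those mates. The OL marker Mbp was at 16026 to 16652 TPM in sorted OLs and at most 0.461 TPM in sorted OPCs, while the OPC marker Pdgfra was low in sorted OPCs at 8.91 to 15.1 TPM, and the mature OL marker Mog was at 0 in all sorted OPCs and at most 1.76 TPM in sorted OLs.

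In control OPCs the family was led per transcript by Sox2 and Sox4. Sox2, the SOXB1 gene shared with pluripotent cells, was at 232, 240.2 and 248 TPM in the 3 control OPC libraries, and Sox4 was at 193, 232 and 238 TPM, so the ranges of these 2 genes overlapped. Sox3 followed at 126, 163 and 162 TPM, below every value of both. Sox12 (58.9, 64.2 and 67.9 TPM) and Sox11 (51.8, 53.3 and 61.0 TPM) also overlapped. Sox21 was lower at 26.0, 29.1 and 27.5 TPM. Sox1 was the lowest at 9.09, 9.06 and 9.95 TPM, still supported by at least 591 estimated counts in every library of the experiment. The same order held for the sorted OPCs except that Sox11 and Sox12 changed places. Pou5f1, which defines pluripotent cells beside Sox2, was listed at 0 in all 23 libraries, and Nanog was at most 2.86 CPM. The 14 pluripotent markers listed summed to 19.6 to 21.5 CPM in control OPCs, and most of that was Esrrb at 12.6 to 15.8 CPM.

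Moving control cells to the permissive medium changed every member in the edgeR test: 5 of 7 rose, where 21.4% of the 14352 genes tested rose, and 2 of 7 fell, where 21.6% fell (43% called in all). Stage and deposited table cannot be told apart in this comparison, and in bulk RNA fewer cells of a type and less RNA per cell cannot be told apart either. The CPM ranges of the 2 stages did not overlap for any of the 7 members, 5 higher and 2 lower, against 29.8% of genes higher without overlap and 29.1% lower. In TPM 5 were higher without overlap (33% of genes), Sox11 was lower (20.8% of genes) and Sox12 overlapped.

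Sox4 rose the most. It went from 912, 1027 and 994 CPM in control OPCs to 1686, 1721 and 1679 CPM in control OLs, a log2 change of 0.79 ± 0.06 (SE, adjusted p = 4.47e-08). Among the SOXB genes Sox21, the repressor, went from 95.8, 101 and 89.7 CPM to 141, 146 and 146 CPM, a log2 change of 0.60 ± 0.06 (adjusted p = 2.32e-06). All 3 OL libraries lay above all 3 OPC libraries for both genes.

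Sox3 rose from 238, 288 and 269 CPM to 367, 393 and 421 CPM, by 0.57 ± 0.11 on the log2 scale (adjusted p = 0.000737). Sox1 rose from 43.3, 40.5 and 41.8 CPM to 47.7, 55.2 and 53.4 CPM, by 0.32 ± 0.10 (adjusted p = 0.0206). Sox2 rose from 434, 422 and 411 CPM to 492, 522 and 508 CPM, by 0.26 ± 0.10 (adjusted p = 0.0401). The last 2 calls were the weak ones: Sox1 lost its call when control OPC library B or control OL library B or C was left out (adjusted p = 0.0689, 0.0779 and 0.0607), and Sox2 kept its call in 12 of 23 alternatives, with adjusted p from 8e-05 (without guide 1 OL library B) to 0.105 (without control OL library B). The Sox2 call was lost without any 1 of the 6 control libraries and without either guide 1 OPC library, which enters through the shared spread.

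Sox11, which acts in young neurons, fell by the most. It went from 434, 418 and 451 CPM in control OPCs to 212, 205 and 215 CPM in control OLs, a log2 change of −1.04 ± 0.07 (adjusted p = 1.04e-08), a fall of 51.5%. Sox12 fell from 257, 263 and 262 CPM to 213, 214 and 228 CPM, by 0.26 ± 0.06 on the log2 scale (adjusted p = 0.00279). The SOXC genes did not move together across stages. Sox4 was 4.00 ± 0.32 times Sox11 in TPM in control OPCs (SD, n = 3) and 14.3 ± 0.55 times in control OLs.

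**Figure D1:**
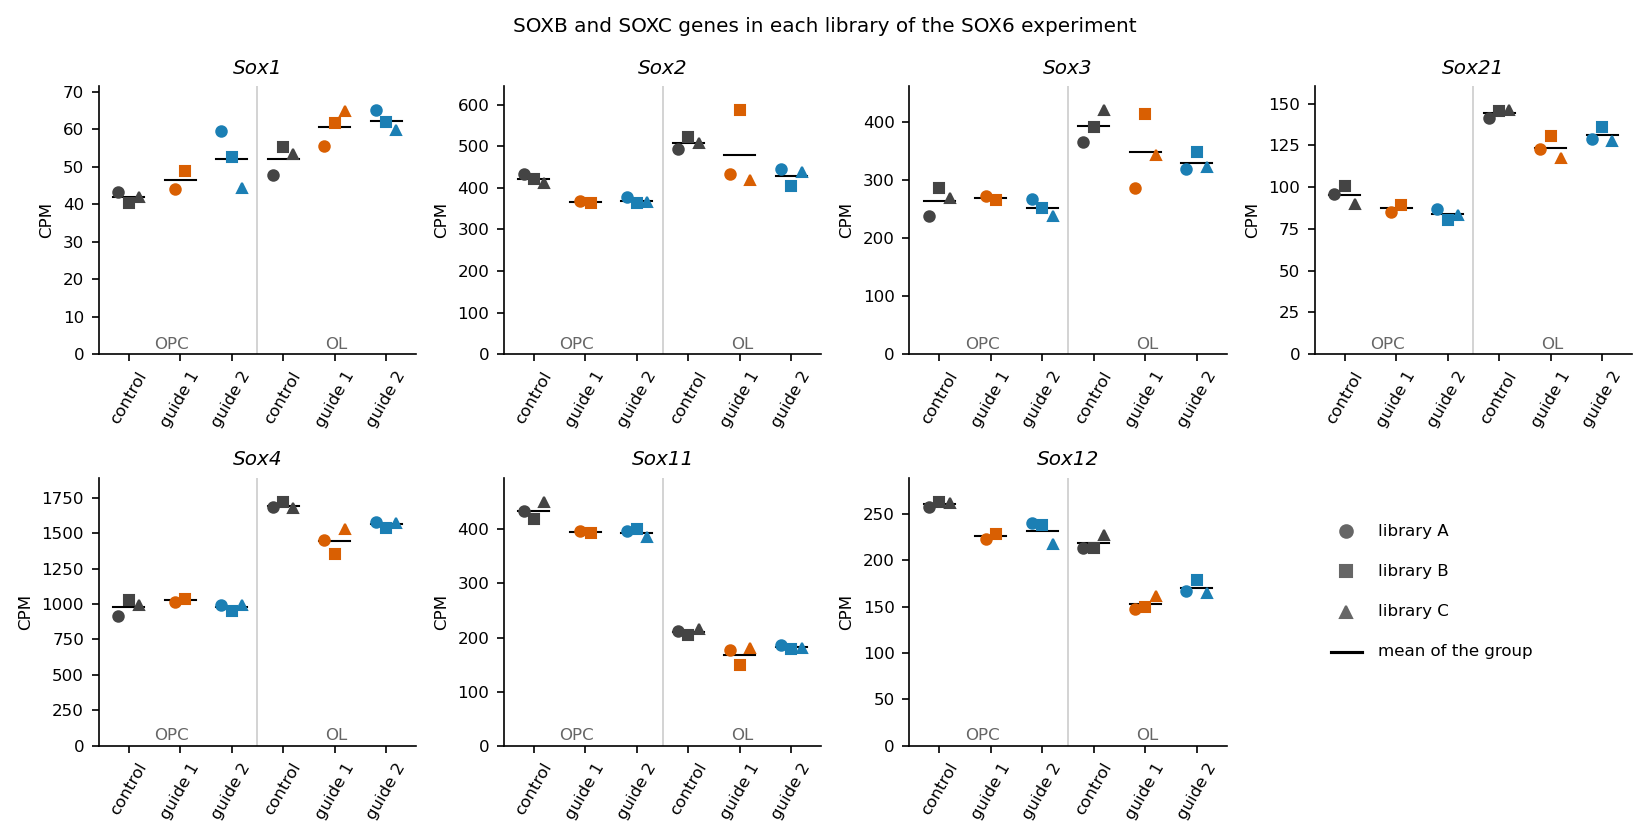
Level of each SOXB and SOXC gene (CPM after TMM, linear axis from 0) in every library of the SOX6 experiment, with control, guide 1 and guide 2 libraries of OPCs at left and OLs at right; marker shapes give the library letter and lines the group mean. Sox11 goes from 418 to 451 CPM in control OPCs to 205 to 215 CPM in control OLs, and guide 1 OL library B lies above all other OLs for Sox2 (586 CPM).

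The same step in targeted cells gave calls for all 7 members in the same directions, with 5 of 7 higher where 27.2% of genes rose and 2 of 7 lower where 25.2% fell (52.4% called in all). The log2 changes ran from 0.59 ± 0.04 for Sox4 to −1.17 ± 0.05 for Sox11, and all 7 calls held in each of the 23 alternatives run for this comparison. The control and targeted steps are not independent of the batch and culture they share, so they are given side by side: Sox12 fell by 0.50 ± 0.04 in targeted cells and by 0.26 ± 0.06 in control cells, and Sox4 rose by 0.59 ± 0.04 and 0.79 ± 0.06. Whether these steps differed is the stage difference tested further on.

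Summed levels of cell type and proliferation markers moved with this step, and their part in the members' changes was not tested. The 20 cell cycle genes summed to 4832 to 5422 CPM in control OPCs and 828 to 843 CPM in control OLs, with 19 of 20 called lower. The 15 myelin genes summed to 141 to 178 CPM and 2129 to 2331 CPM, with 10 of 13 tested called higher. The 17 astrocyte markers summed to 2407 to 2609 CPM and 8560 to 8833 CPM (11 of 16 tested higher, 2 lower), with Gfap at no more than 3.25 CPM in control OLs and Aqp4 at no more than 22.5 CPM. The 18 neuron markers summed to 1507 to 1772 CPM and 2607 to 2711 CPM (8 of 17 tested higher, 1 lower). The 17 progenitor markers summed to 10418 to 11533 CPM and 13009 to 13178 CPM, with 12 of 17 called higher and 4 lower in control OLs. Among them Pdgfra, the gene of the surface marker CD140a, rose by 2.30 on the log2 scale (adjusted p = 3.69e-05), from 18.1 to 25.4 CPM in control OPCs to 104 to 117 CPM in control OLs, so this OPC marker was higher in the libraries labelled OLs.

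In sorted cells the split within the family was wider than in the culture step. In the limma test on log2(TPM + 1), 2 of 7 members were higher in O1-positive OLs, where 26.6% of 11902 genes were higher, and 4 of 7 were lower, where 34.4% were lower (61% called in all). The same 2 were higher without overlap between libraries, where 29.5% of genes were, and the same 4 lower, where 38% were. On this scale changes of genes with low levels are understated.

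Sox2 was at 169, 174 and 214 TPM in sorted OPCs and at 381, 427 and 419.8 TPM in sorted OLs, a log2 difference of 1.14 ± 0.10 (SE, limma adjusted p = 6.98e-05). Sox21 was at 23.3, 24.2 and 31.1 TPM and at 60.4, 68.5 and 55.7 TPM, a difference of 1.21 ± 0.13 (adjusted p = 0.000204). For both genes every OL library exceeded every OPC library, and both calls held in all 11 alternatives.

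The other SOXB1 genes went the other way. Sox3 was at 59.0, 53.5 and 106 TPM in sorted OPCs and at 20.3, 19.5 and 25.2 TPM in sorted OLs, lower by 1.65 ± 0.25 on the log2 scale, or −1.65 as OL minus OPC (adjusted p = 0.0011). Sox1 was at 7.30, 7.47 and 6.13 TPM and at 1.44, 1.78 and 1.65 TPM, a difference of −1.60 ± 0.16 (adjusted p = 0.000122). In both genes the groups did not overlap. Sox1 and Sox3 thus had opposite signs in the culture step and in the sorted comparison, which differ in end point, sorting and medium.

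Among the SOXC genes Sox11 was at 47.5, 52.7 and 48.3 TPM in sorted OPCs and at 5.42, 6.54 and 5.35 TPM in sorted OLs, a difference of −2.90 ± 0.11 (adjusted p = 1.55e-06). Sox12 was at 46.9, 46.1 and 43.5 TPM and at 36.0, 32.0 and 30.9 TPM, a difference of −0.45 ± 0.09 (adjusted p = 0.00324). Sox4 was at 139, 135 and 229 TPM and at 204, 220.2 and 219.5 TPM, a difference of 0.40 ± 0.19 that did not pass (adjusted p = 0.116). Sorted OPC library C, which also held the highest OPC value of Sox2, Sox3 and Sox21, was above all 3 OL libraries for Sox4, while the other 2 OPC libraries were below them, and without it the Sox4 difference was 0.64 with an adjusted p of 0.000326.

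**Figure D2:**
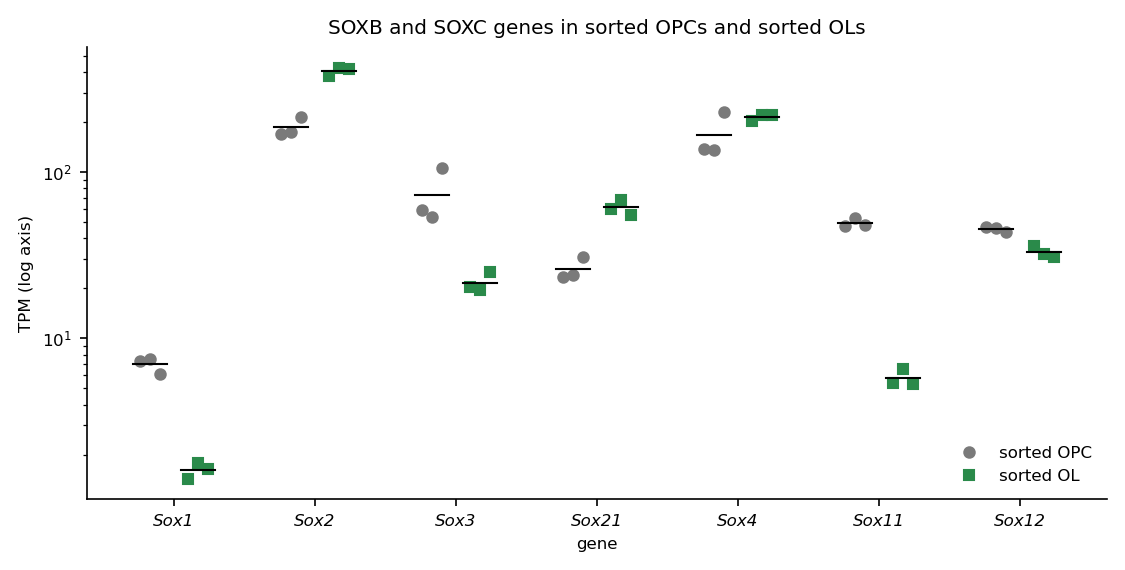
TPM (log axis) of the 7 genes in 3 sorted OPC libraries (circles) and 3 sorted OL libraries (squares), with group means as lines. Sox11, Sox3 and Sox1 are lower in every OL library, Sox2 and Sox21 are higher, and Sox4 overlaps because 1 OPC library is at 229 TPM.

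The SOXB1 transcripts of sorted OLs were almost all from Sox2. Sox2 was 70.5% ± 4.37 (SD, n = 3) of the summed SOXB1 TPM in sorted OPCs and 94.6% ± 0.629 in sorted OLs, while Sox3 went from 26.8% ± 5.09 to 5.01% ± 0.644. Within the SOXC pool Sox4 made up 62.9% ± 7.41 in sorted OPCs and 84.7% ± 1.42 in sorted OLs. The summed SOXC level was 263 ± 50.2 TPM and 253 ± 7.24 TPM, a difference smaller than the spread between OPC libraries. The summed SOXB1 level was 266 ± 52.7 TPM and 432 ± 25.6 TPM. In the unsorted culture step Sox2 kept a smaller share of SOXB1 TPM, 60.2% ± 2.57 in control OPCs and 55.2% ± 1.41 in control OLs.

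Markers of other cells also differed between the sorted groups, and their part was not tested. The astrocyte markers summed to 832 to 911 TPM in sorted OPCs and 2166 to 4313 TPM in sorted OLs, with Gfap at 99.3 to 376 TPM and Aqp4 at 1.19 to 9.81 TPM in the latter. The cell cycle genes summed to 2178 to 2566 TPM and 159 to 206 TPM, and the myelin genes to 50.6 to 80.1 TPM and 26546 to 26791 TPM. The neuron markers overlapped, at 520 to 604 TPM and 486 to 577 TPM.

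**Figure D3:**
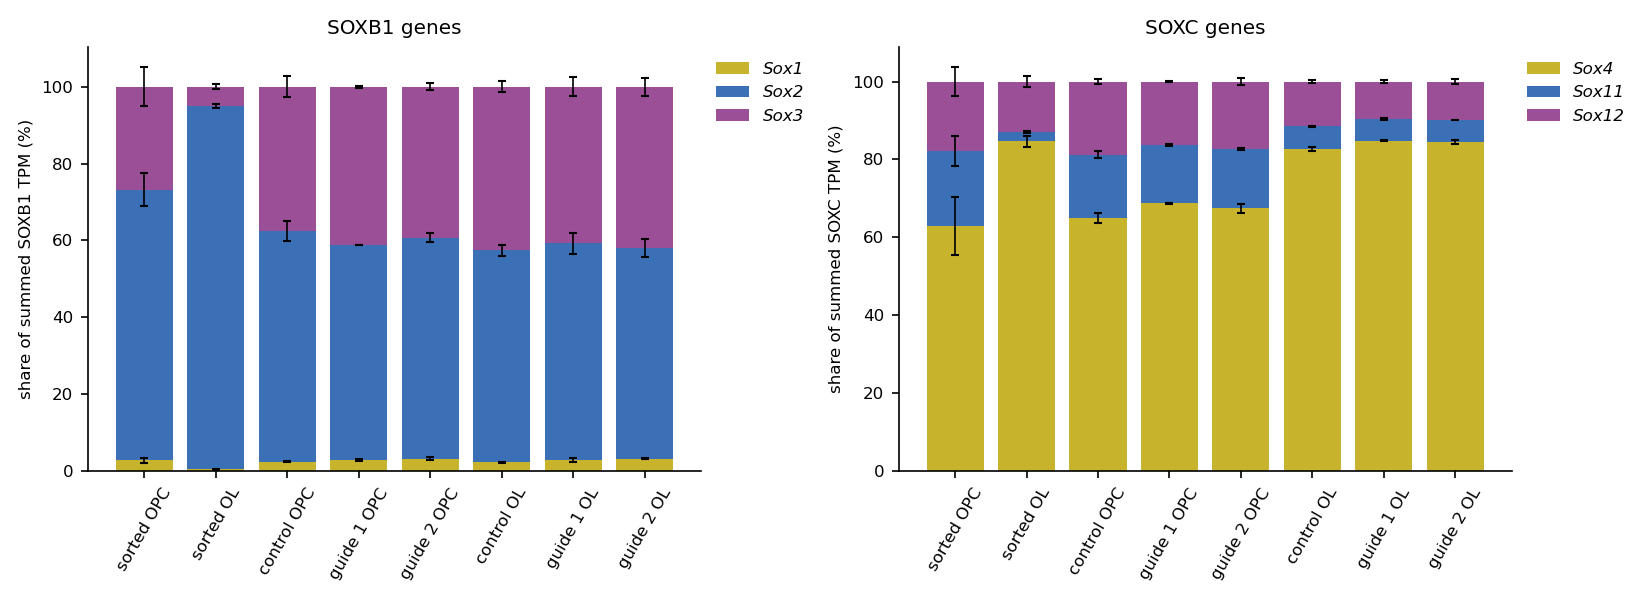
Share of each gene (%) in the summed TPM of the SOXB1 genes (left) and of the SOXC genes (right), as stacked group means with SD error bars over the libraries of each of the 8 groups. Sox2 makes up 94.6% of SOXB1 transcripts in sorted OLs and 55.2% in control OLs of the culture, and Sox4 makes up 82.7% of SOXC transcripts in control OLs against 64.9% in control OPCs.

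**Figure D4:**
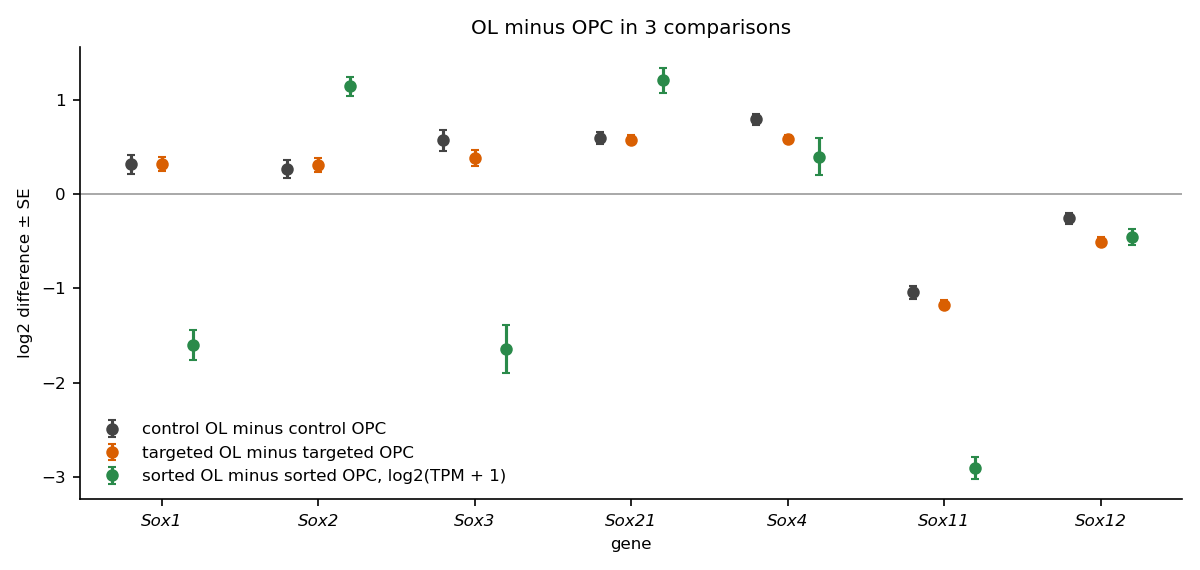
Log2 difference of OL minus OPC (± SE) for each gene in control cells, in targeted cells and in sorted cells, the last on the log2(TPM + 1) scale. Sox1 and Sox3 are above 0 in both culture steps and below 0 in sorted cells, while Sox11 is below 0 in all 3 comparisons, at −1.04, −1.17 and −2.90.

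The comparison of targeted with control cells asked how the members differed with Sox6 targeted at each stage. Sox6 RNA was lowered and not absent in the targeted cells. In OPCs the members changed little: 1 of 7 was called lower by edgeR (Sox2) and none higher, where 1.63% of the 13358 genes tested were lower and 1.95% higher (3.59% called in all). The median log2 difference of the 7 genes was −0.12, against −0.00 over all genes tested.

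Sox2 was at 434, 422 and 411 CPM in control OPCs, at 369 and 363 CPM with guide 1 and at 378, 363 and 365 CPM with guide 2. All 5 targeted libraries lay below all 3 control libraries, and the difference was −0.18 ± 0.03 (SE, log2; edgeR adjusted p = 0.0247), a fall of 11.7%. The direction was the same in all 16 alternatives, but the call held in 6 of them, with adjusted p from 4.94e-05 to 0.40, and it was lost when control library B, either guide 1 library or any guide 2 library was left out (adjusted p = 0.0584 to 0.127). In the authors' deposited table the Sox2 value was 0.19 as control over targeted, with an adjusted p of 5.68e-05.

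The SOXC genes Sox12 and Sox11 were also below the controls in each targeted OPC library without a call. Sox12 was at 257, 263 and 262 CPM in controls, at 223 and 229 CPM with guide 1 and at 241, 238 and 218 CPM with guide 2, a difference of −0.17 ± 0.04 (adjusted p = 0.0742). DESeq2 called it (adjusted p = 0.0168), and in the authors' deposited table its adjusted p was 0.0107. Sox11 was at 434, 418 and 451 CPM in controls and at 385 to 399.8 CPM in the targeted libraries, a difference of −0.12 ± 0.04 (adjusted p = 0.147).

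Sox21 had 89.7 to 101 CPM in controls and 80.6 to 89.5 CPM in targeted libraries, a difference of −0.14 ± 0.05 (adjusted p = 0.235). Sox1 was the member with the opposite sign and no overlap, at 40.5 to 43.3 CPM in controls and 44.1 to 59.5 CPM in targeted libraries, a difference of 0.25 ± 0.09 (adjusted p = 0.189). In CPM 4 members thus lay lower without overlap, where 6.24% of genes did, and 1 higher, where 5.5% did. In TPM Sox2 alone lay lower (3.35% of genes) and Sox1 alone higher (6.48% of genes), and the other 5 overlapped. From library to library the ratio of CPM to TPM moved by nearly the same factor for all 7 members. The median gene of each library moved by nearly that factor too. Relative to it, the members' ratios of counts to TPM were 0.979 to 1.007 of their stage median in OPC libraries. What sets that factor, and so the change in these counts, was not tested. Sox3 (0.00 ± 0.07, normal-approximation interval −0.13 to 0.13) and Sox4 (0.06 ± 0.05, interval −0.04 to 0.15) had overlapping groups. With so few libraries such intervals are narrower than true 95% intervals.

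In OLs the SOXC gene Sox12 was the member called with all libraries. It was at 213, 214 and 228 CPM in control OLs, at 148, 149 and 161 CPM with guide 1 and at 167, 179 and 165 CPM with guide 2. All 6 targeted libraries lay below all 3 control libraries, by −0.44 ± 0.06 (log2, edgeR adjusted p = 0.00421), a fall of 26.2%. Each guide alone also passed, with −0.51 ± 0.08 for guide 1 (adjusted p = 0.00584) and −0.36 ± 0.08 for guide 2 (adjusted p = 0.0299). The guide 1 call held in all 18 alternatives and the guide 2 call in 8 of 18 (adjusted p from 0.000595 to 0.212), being lost when any control OL or guide 2 OL library was left out (0.0564 to 0.161). Sox12 kept its call in all 18 alternatives for both guides together, with differences of −0.52 to −0.40 and adjusted p from 9.32e-08 to 0.0432, and the authors' deposited table gave 0.44 as control over targeted (adjusted p = 4.06e-05).

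With all 9 OL libraries, Sox12 was the 1 of 7 members called lower and none was called higher, where 3.37% of the 13447 genes tested were lower and 3.13% higher (6.5% called in all). The median of the 7 differences was −0.19, against −0.00 over all genes. Without guide 1 OL library B, 6 of 7 members were called lower (all but Sox1), where 8.6% of 13810 genes were lower (16.9% called in all). The same 6 of 7 were called when a transcript length offset was added to that fit, an alternative chosen after seeing the data.

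For the SOXB1 genes Sox2 and Sox3, library B lay on the side of the controls. Sox2 was at 492, 522 and 508 CPM in control OLs, at 434, 586 and 419.9 CPM with guide 1, where library B is the highest of all OLs, and at 444, 404 and 438 CPM with guide 2. The Sox2 difference was −0.17 ± 0.10 (adjusted p = 0.466) with library B and −0.26 ± 0.04 (adjusted p = 0.00204) without it. Sox3 was at 367, 393 and 421 CPM in controls, at 287, 415 and 344 CPM with guide 1 and at 319.9, 349 and 322 CPM with guide 2. Its difference was −0.22 ± 0.11 (adjusted p = 0.332) with library B and −0.29 ± 0.07 (adjusted p = 0.0156) without it.

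These 2 genes have the shortest transcripts of the 7 (2057 bases for Sox2 and 2065 bases for Sox3), and in CPM library B was the highest targeted OL library for both. Sox4 and Sox11 deviated the other way in library B. Sox4 (4795 bases) was at 1686, 1721 and 1679 CPM in controls, at 1454, 1351 and 1528 CPM with guide 1 and at 1582, 1537 and 1575 CPM with guide 2. Sox11 (8311 bases) was at 212, 205 and 215 CPM in controls, at 177, 149 and 179.7 CPM with guide 1 and at 185, 179 and 181 CPM with guide 2. For both, library B held the lowest CPM of the experiment's OLs. Sox1, Sox21 and Sox12 did not follow their length in this way: library B held the highest guide 1 value of Sox21 and the middle guide 1 value of Sox1 and Sox12. In TPM library B was within the range of the other targeted OL libraries for Sox2 (274 TPM) and Sox3 (193 TPM). It was below all of them for Sox4 (249.98 TPM), Sox11 (15.6 TPM), Sox12 (29.9 TPM), Sox21 (31.04 TPM) and Sox1 (11.3 TPM). Whether transcript length accounts for its deviations was not tested.

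Sox11 differed by −0.27 ± 0.07 with all libraries (adjusted p = 0.0712) and by −0.24 ± 0.03 without library B (adjusted p = 0.00091). Sox4 differed by −0.18 ± 0.06 (adjusted p = 0.136) and by −0.16 ± 0.03 (adjusted p = 0.00338). Sox21 was at 141, 146 and 146 CPM in controls, at 123, 131 and 117 CPM with guide 1 and at 129, 136 and 128 CPM with guide 2, and differed by −0.19 ± 0.06 (adjusted p = 0.136) and by −0.21 ± 0.04 (adjusted p = 0.00512). For these 3 genes and Sox12 every targeted library lay below every control library in CPM, where 8.64% of genes did.

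Sox1 again had the opposite sign. It was at 47.7, 55.2 and 53.4 CPM in control OLs, at 55.6, 61.8 and 64.9 CPM with guide 1 and at 65.0, 62.0 and 59.7 CPM with guide 2, so that all targeted libraries lay above the controls, where 8.8% of genes did. Its difference of 0.24 ± 0.08 did not pass (adjusted p = 0.151), nor did it without library B (0.22 ± 0.07, adjusted p = 0.0732). In TPM the 6 other members lay below all controls in every targeted OL library, where 9.79% of genes did, and Sox1 overlapped, where 3.94% of genes lay higher. Sox2 and Sox3 did not lie below all controls in CPM. There library B was at 586 and 415 CPM, against 492 to 522 and 367 to 421 CPM in controls. For every member library B had a higher ratio of CPM to TPM than the other OL libraries. That Sox1 overlap came from library B, at 11.3 TPM against 11.7 to 13.5 TPM in controls. The other targeted OL libraries were at 13.6 to 16.0 TPM.

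**Figure D5:**
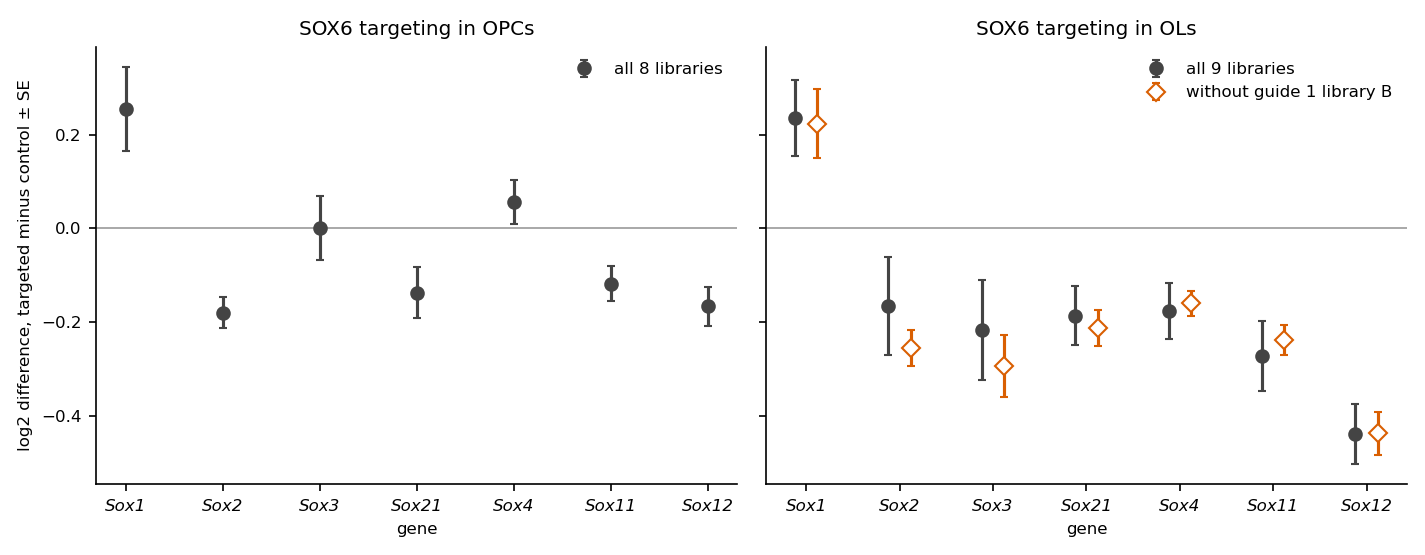
Log2 difference of targeted minus control cells (± SE) for each gene, in OPCs (left) and in OLs (right), with OLs shown for all 9 libraries (filled) and without guide 1 library B (open). Sox12 in OLs is the lowest point at −0.44, Sox1 is above 0 in both stages, and leaving out library B narrows the error bars of the 6 genes below 0.

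No difference between the guides was called for any member by edgeR or by DESeq2, and no member had an unadjusted p under 0.05 for guide 2 minus guide 1 at either stage. With so few libraries per guide this does not show that the guides acted alike. For Sox12 in OLs guide 2 minus guide 1 was 0.15 ± 0.08 (edgeR unadjusted p = 0.0771). Over all genes edgeR called 0% in that contrast at both stages, with 1106 genes at an unadjusted p under 0.05 in OPCs and 773 in OLs, while DESeq2 called 107 and 14 genes. Taken alone against control, guide 1 gave 0 member calls in OPCs (2 members at an unadjusted p under 0.05, 1 called by DESeq2), where 2.78% of genes were called (1.32% higher, 1.47% lower), and guide 2 gave 1 (Sox2, −0.19 ± 0.04, adjusted p = 0.0451), where 2.04% were (1.33% higher, 0.719% lower). That guide 2 call held in 4 of 16 alternatives, with adjusted p from 0.000223 to 0.65, and was lost without any 1 of 7 of the 8 OPC libraries, control library C being the exception. In OLs each guide gave 1 member call, Sox12, where 4.92% of genes were called for guide 1 (2.39% higher, 2.53% lower) and 4.44% for guide 2 (2.31% higher, 2.13% lower).

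The response in OLs minus that in OPCs, tested as an interaction, gave 0 member calls by edgeR, where 1.69% of genes were called (0.92% higher, 0.773% lower). For Sox12 it was −0.25 ± 0.07 (adjusted p = 0.138), and for Sox4 −0.21 ± 0.07 (adjusted p = 0.227), these 2 members having an unadjusted p under 0.05. DESeq2 called Sox12 (adjusted p = 0.0192), and edgeR did without guide 1 OL library B (adjusted p = 0.0466) and with library totals in place of TMM (adjusted p = 0.0422). For Sox2 the difference between stages was 0.04, with a normal-approximation interval of −0.20 to 0.28, which is narrower than a true 95% interval.

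Shares within the families also differed between targeted and control libraries, as a description with no test. Sox1 made up 2.35% ± 0.141 of SOXB1 TPM in control OPCs, 2.80% ± 0.233 (n = 2) with guide 1 and 3.19% ± 0.347 with guide 2, and 2.22% ± 0.0935, 2.85% ± 0.436 and 3.13% ± 0.118 in OLs. Sox12 made up 11.5% ± 0.45 of SOXC TPM in control OLs, 9.71% ± 0.394 with guide 1 and 9.95% ± 0.526 with guide 2. The SOXC sum in OLs was 509 ± 5.97 TPM in controls, 386 ± 78.6 TPM with guide 1 and 447 ± 22.4 TPM with guide 2, the guide 1 spread coming with library B, in which it was 295 TPM.

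Marker sums moved with targeting as well, and their part in the members' differences was not tested. The neuron markers summed to 2607 to 2711 CPM in control OLs, 1322 to 2300 CPM with guide 1 and 2396 to 2445 CPM with guide 2. The guide 1 libraries spread widely (mean 1969, SD 560 CPM), against SDs of 56.3 CPM in controls and 24.9 CPM with guide 2. In OLs 4 of 15 tested were lower, and in OPCs 5 of 16 were lower and 1 higher. The cell cycle genes summed to 828 to 843 CPM, 462 to 555 CPM and 451 to 462 CPM, with 12 of 19 tested lower in OLs and 3 of 20 lower in OPCs. The progenitor markers had 10 of 16 tested lower in OLs and 6 of 17 in OPCs, and the myelin genes 6 of 13 higher and 1 lower in OLs. The astrocyte markers had 4 of 16 higher and 1 lower in OPCs and 1 of 16 higher in OLs, and no tested pluripotent, microglia or fibroblast marker was called with targeting at either stage.

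Of 12 other SOX genes listed, 6 had levels that could be tested. In OPCs with SOX6 targeted 3 were called lower and 1 higher. Sox10, which drives myelin genes, fell by 0.97 (log2, adjusted p = 0.00356), Sox9, a SOXE gene of glial progenitors, by 0.64 (adjusted p = 0.00147), and Sox6 itself as above, while Sox13, a SOXD relative of Sox6, rose by 0.45 (adjusted p = 0.0267). In OLs Sox10 fell by 0.86 (adjusted p = 0.000138) and Sox13 rose by 1.56 (adjusted p = 3e-05). The rise of Sox13 was larger in OLs by 1.13 in the interaction test (adjusted p = 0.000123), and Sox5 and Sox8 were not called at either stage. From OPCs to OLs in control cells Sox10 rose by 3.19 (adjusted p = 6.77e-12), more than any member.

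Genes that work with SOXB proteins in neural progenitors (18 listed, 17 tested) gave 1 lower and 0 higher call in OPCs, and 2 lower and 1 higher in OLs. Pou3f1, a POU partner, differed by −0.39 in OPCs (adjusted p = 0.0247) and by 0.53 without a call in OLs (adjusted p = 0.0696), and the difference between stages was called (0.94, adjusted p = 0.0133). In OLs Olig2, an oligodendrocyte lineage factor, fell by 0.27 (adjusted p = 0.0419), and Hes5, a Notch target, rose by 0.60 (adjusted p = 0.0258). Across control stages 8 of 17 fell and 2 rose: Pou3f1 fell by 2.61 (adjusted p = 3e-09), Vim, an intermediate filament gene of progenitors, by 1.00 (adjusted p = 8.39e-06) and Nes, another, by 1.67 (adjusted p = 0.00435), while Hes5 rose by 1.95 (adjusted p = 6.92e-08). In sorted cells 13 of 17 were lower in OLs and 1 was higher (Prom1, 2.25, adjusted p = 7.49e-05), with a median of −1.55 against −0.14 over all genes.

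Genes linked to SOXC proteins, mostly of young neurons (12 listed), had 2 lower and 1 higher call among 12 tested in targeted OPCs and 1 higher among 11 in targeted OLs. Tubb3, a neuronal tubulin and known SOX4 and SOX11 target, fell by 0.74 in OPCs (adjusted p = 0.00522), and Ina, a neuronal intermediate filament, fell by 0.24 (adjusted p = 0.0409). Stmn2, a neuronal growth cone gene, rose (adjusted p = 0.011) from at most 0.125 CPM in control OPCs to 0.84 to 1.38 CPM in targeted OPCs, levels of a few reads for which no fold is given. The OL call was Hes5. Across control stages 6 rose, among them Tubb3 by 1.40 (adjusted p = 2.63e-07) and Dcx, a microtubule gene of migrating neurons, by 1.12 (adjusted p = 0.00023), and 2 fell, Mex3a, an RNA-binding protein gene, by 0.37 (adjusted p = 0.00704) and Neurod1, a neuronal factor, by 1.44 (adjusted p = 0.00849). In sorted OLs 4 of 10 tested were higher and 2 were lower, Tead2 by 3.07 (adjusted p = 0.000276) and Mex3a by 1.94 (adjusted p = 6.51e-06).

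The genes with profiles closest to each member over the 17 libraries, by the root mean square difference of centred log2(CPM + 1) values among 8015 candidates, were Sf3b3 (0.05), Nolc1 (0.07) and Cdr2l (0.07) for Sox11, whose own profile varied by 0.58 around its mean. For Sox4, which varied by 0.34, they were Fchsd2 (0.06), Arhgef10l (0.06) and Zfp36l1 (0.07). For Sox12 (0.28) they were Gpc1 (0.08), Traf4 (0.09) and Rapgef3 (0.10), and for Sox21 (0.30) Cryab (0.08), Pcdhb10 (0.08) and Ncald (0.09). For Sox2 (0.20) they were Sept7 (0.06), Ube2e2 (0.08) and Klhl2 (0.08), for Sox3 (0.26) Ubald1 (0.09), Spg21 (0.11) and Nkx2-2 (0.11), and for Sox1 (0.22) Sec14l1 (0.10), Nln (0.12) and Osbpl2 (0.12).

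The members share a gene structure that the grouping did not use. In GENCODE M21 (GRCm38) each has a single-exon transcript, as 6.27% of the 21943 protein-coding genes do in all of theirs, with 1 further Sox12 transcript of 2 exons. They lie on 7 chromosomes: Sox1 at chr8:12395295-12400126, Sox2 at chr3:34650405-34652461, Sox3 at chrX:60891366-60893430, Sox21 at chr14:118233232-118237030, Sox4 at chr13:28948919-28953713, Sox11 at chr12:27334264-27342574 and Sox12 at chr2:152393611-152398063. Sox2 lies inside the span of the transcript Sox2ot and Sox1 inside that of Sox1ot, both on the same strand, and the long noncoding genes Gm4675 and Gm26735 overlap Sox21 and Sox4 on the opposite strand. These 4 were not used here. The library kit was unstranded, so reads from overlapping parts of these genes cannot be told apart. Of the nearest coding genes on either side of the members, those that could be tested gave no call with targeting at either stage. Zcchc3, 13892 bases from Sox12, differed by −0.04 in OLs (adjusted p = 0.856), and Gpr180, 69971 bases from Sox21, by 0.09 (adjusted p = 0.714).

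The 250 bases before the RefSeq start (GRCm38.p6) were available for 6 members, Sox3 not being matched, and are shown for the 3 SOXC genes, which had the largest difference with targeting (Sox12), the largest fall (Sox11) and the largest rise (Sox4) across stages. Capitals mark CCAAT or its reverse complement ATTGG, the letters searched on both strands.
Sox12: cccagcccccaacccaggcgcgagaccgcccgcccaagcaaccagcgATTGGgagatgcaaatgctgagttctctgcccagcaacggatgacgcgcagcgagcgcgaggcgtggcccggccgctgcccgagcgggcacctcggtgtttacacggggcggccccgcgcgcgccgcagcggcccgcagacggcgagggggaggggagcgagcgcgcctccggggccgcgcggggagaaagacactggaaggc
Sox4: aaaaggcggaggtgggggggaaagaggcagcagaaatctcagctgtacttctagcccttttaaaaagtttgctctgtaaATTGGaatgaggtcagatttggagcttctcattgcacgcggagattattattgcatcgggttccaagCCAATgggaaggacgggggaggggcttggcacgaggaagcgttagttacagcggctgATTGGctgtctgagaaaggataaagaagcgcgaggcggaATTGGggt
Sox11: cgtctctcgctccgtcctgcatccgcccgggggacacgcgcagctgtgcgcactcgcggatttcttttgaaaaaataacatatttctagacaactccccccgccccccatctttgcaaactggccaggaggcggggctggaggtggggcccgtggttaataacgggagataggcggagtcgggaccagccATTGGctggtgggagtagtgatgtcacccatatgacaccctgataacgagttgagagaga
These are chr2:152398047-152398296, chr13:28953700-28953949 and chr12:27342719-27342968, each on the minus strand and written 5′ to 3′. The Sox4 stretch held 4 matches and those of Sox11 and Sox12 held 1 each, where 34.5% of 27025 promoters held at least 1. Sox1 and Sox2 also held 1 and Sox21 none. The SOX core ACAAT (or ATTGT) was found in none of the 6 stretches and in 28.3% of all promoters, which says only that these letters are not in these windows. The GC box GGGCGG (or CCGCCC) occurred 3 times for Sox1 and Sox12, 2 times for Sox2 and Sox11 and not for Sox21 and Sox4, with 32.9% of promoters holding it. The number of CG pairs was 35 for Sox12, 29 for Sox1, 27 for Sox2, 17 for Sox11 and Sox21 and 11 for Sox4, against a median of 6.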

How the data were processed

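Salmon 0.14.1, DESeq2 and the build mm10 are named in the submitters' processing notes. For the SOX6 experiment the authors deposited 1 table of estimated counts for each stage, by gene symbol, and they deposited TPM for all libraries. The authors deposited log2 fold changes with adjusted p-values for their own tests, which are quoted by name. Columns carry letters for libraries within a group, and these are not the label numbers.

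Estimated counts were rounded, filtered with filterByExpr (minimum count 10, total 15), scaled by TMM and tested with the quasi-likelihood test of edgeR 4.0.16 (R 4.3.3), each stage alone, as the mean of both guides minus control. Comparisons across stages used 1 fit of 17 libraries. For the sorted cells limma 3.58.1 was run on log2(TPM + 1) of genes with TPM of at least 1 in 3 libraries. Tests were two-sided, and p-values were adjusted by Benjamini-Hochberg across every gene in the fit, with calls under 0.05. The fits were tested on simulated data. Alternatives were DESeq2 1.42.0, other scalings, no filter, pseudocounts of 0.1 and 5, a transcript length offset, a block by library letter and single libraries left out; 3 were added after seeing the data.

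All 7 members, Sox6, genes of 3 lists, neighbouring genes and the 3 nearest profiles per member were named. The members and lists were chosen with earlier results of these data known. The control and single-guide comparisons share control libraries. The values of 1 listed gene are not reported here, though list counts include it.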

Additional observations from a re-analysis of the deposited data

Results flagged for a closer look

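Sox1 and Sox3 had opposite signs in the 2 comparisons of OLs with OPCs. Control OLs in permissive medium exceeded control OPCs by 0.32 (log2) for Sox1 and by 0.57 for Sox3, with no overlap of libraries. Sorted OLs were lower than sorted OPCs, by −1.60 for Sox1 and −1.65 for Sox3 on the log2(TPM + 1) scale, also with no overlap. The difference between the comparisons was not tested, because the tables were normalized separately, and end point, sorting and medium cannot be told apart.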

How the results depend on the processing

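No member changed sign past the threshold in any alternative run. In the targeted OPC comparison the count of members called (1 of 7) was 2 with DESeq2 and 0 with a length offset, the block, both stages in 1 fit or limma on log2(TPM + 1), and all genes called (479) came to 762, 237, 274, 254 and 146. Leaving out single libraries gave 0 to 1 members and 149 to 550 genes. In targeted OLs the members called (1) were 2 with library totals, 2 with DESeq2, 4 with both stages in 1 fit and 6 with the length offset and without guide 1 library B. All genes called (874) came to 1361 with DESeq2, 1604 with both stages in 1 fit, 1581 with the offset and without that library, and 451 with limma. Single libraries left out gave 1 to 6 members and 353 to 2337 genes, with 6 and 2337 both from leaving out guide 1 library B and 353 from control library B.

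The difference between stages gave 1 member with library totals and with DESeq2, 488 genes with DESeq2 and 104 with the length offset (243 as reported), and 0 to 1 members and 113 to 638 genes with a library left out. Guide 1 alone gave 1 member with DESeq2 in OPCs, and in OLs 2 with library totals, 3 with DESeq2, 4 with both stages in 1 fit and 5 with the offset and without library B. Guide 2 alone gave 0 members in OPCs without the filter, with the offset, the block, both stages in 1 fit or limma. In OLs it gave 0 without the filter, with the offset, the block or limma, and 4 with the offset and without library B. Left-out libraries gave 0 to 1 (guide 1) and 0 to 1 (guide 2) in OPCs, and 1 to 6 and 0 to 6 in OLs. For the control stage they gave 5 to 7 members and for the sorted cells 6 to 7.

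The labels do not say whether same-lettered libraries were paired. Their deviations correlated between −0.04 and 0.12 in OLs and between −0.04 and 0.11 in OPCs. Libraries of different letters gave −0.15 to 0.14 and −0.13 to 0.09. In sorted cells same-lettered libraries gave 0.062 to 0.086 and the others −0.115 to 0.057. The block is given as an alternative only. It ended the Sox2 calls in targeted OPCs (adjusted p = 0.0535), in guide 2 OPCs (0.0938) and in the control stage comparison (0.0505). The Sox12 call in guide 2 OLs was also lost with the block (0.0789). Sox2 in the control stage also lost its call without the filter (0.0664) and with the length offset (0.053), the cause of which was not tested. With 2 or 3 libraries per group, differences near 0.2 on the log2 scale passed or failed by setting, and TPM without counts gives no depth for the sorted cells.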
